A study of Mus musculus with 10 samples.

Results

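The 10 genes described here belong to the integrated stress response that runs through the transcription factor ATF4, and to the serine and folate branch that ATF4 serves. They are Atf4, Atf5, Ddit3, Trib3, Asns, Chac1, Sesn2, Psat1, Phgdh and Mthfd2, chosen by name, and all 10 were among the 15088 genes that could be named and tested. The array held 15 probes for them, and 13 of these passed the filter on dim probes, so that each gene had at least 1 usable probe. The group of interest was the high-fat diet with ethanol group, in which male C57BL/6J mice drank ethanol in their water for 3 months, at a daily 5 g per kg during week 1 and a daily 10 g per kg from then on. Its control group was of the same sex and strain, ate the same 60% high-fat diet of 5.5 kcal per g and was given no ethanol. All mice had the fat-rich diet for 4 months, the first of them without ethanol, so no lean mice stand beside these groups. The mice were bought at 7 weeks of age and acclimatised for 1 week, and liver RNA of 5 mice picked at random from the 10 of each group was hybridised, 1 mouse per array. Each value below is therefore 1 animal, and n = 5 per group throughout.

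ATF4 is made when kinases that sense missing amino acids, misfolded protein, viral RNA or lack of haem phosphorylate the translation factor eIF2alpha. General translation then slows, while the Atf4 messenger, which has short upstream reading frames, is translated better. ATF4 binds DNA together with C/EBP proteins and switches on genes for amino acid supply, for tRNA charging and, under lasting stress, for the death-linked factor CHOP. Much of the control of ATF4 is thus in its translation, which an RNA array does not measure. In liver the pathway is known for the response to amino acid shortage and to stress of the endoplasmic reticulum or mitochondria.

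The arrays lay on 3 slides, read from the barcode in each file header. Slide 1 held ethanol replicate 4 with control replicates 4 and 5, slide 3 held the other 4 ethanol mice with control replicate 2, and slide 2 held control replicates 1 and 3. Slide and treatment were therefore partly mixed, and each gene is given over all arrays and within slides 1 and 3. The column of the array on its slide was partly mixed with treatment too. Column 4 held only control replicates 1, 4 and 5, and column 1 held only ethanol replicates 2 and 3. The 75th percentile of signal was 384 to 387 units on the arrays of column 4 and 280 to 348 on the others. The share of spots well above background ran from 57.2% to 58.9% on ethanol arrays and from 55.5% to 59.1% on control arrays, with control replicate 3 lowest, and no spot was saturated. All 10 hepatocyte markers examined, among them Alb and Hnf4a, were well above background on all 10 arrays. Signals are given as log2 of the processed intensity over the array's own 75th percentile, so 0 is a spot at that percentile, and values of different genes, which come from different probes, are not set against each other.

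ATF4 and its C/EBP partners bind a composite site, the C/EBP-ATF response element, here searched as TGATGNAA on both strands of each RefSeq promoter window (GRCm38.p6, 250 bases before to 50 after the start of a gene). All 10 genes had a window, Atf5 and Psat1 had a second one, and the letters were found in 3 of the 12 windows, those of Asns, Chac1 and Trib3. Of all 32851 windows 3.97% held them. The endoplasmic reticulum stress element, a longer motif of the neighbouring pathway, was found in none of the 12 and in 0.119% of all windows. A match is a description of letters, and a window without one says nothing about binding. Printed first are the windows with a match, up to 30 bases after the start, because they show the site in genes that behaved differently from one another below. The windows of Mthfd2 and Psat1, the members of the 10 whose signals followed Asns most closely, are printed after them. Each reads 5′ to 3′ on the gene's strand, with the matched letters in capitals.
Asns: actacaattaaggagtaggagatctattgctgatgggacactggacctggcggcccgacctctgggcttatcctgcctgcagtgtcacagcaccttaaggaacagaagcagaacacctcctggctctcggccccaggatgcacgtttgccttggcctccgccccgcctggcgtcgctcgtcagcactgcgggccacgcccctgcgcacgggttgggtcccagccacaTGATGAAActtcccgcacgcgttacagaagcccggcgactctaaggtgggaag
Chac1: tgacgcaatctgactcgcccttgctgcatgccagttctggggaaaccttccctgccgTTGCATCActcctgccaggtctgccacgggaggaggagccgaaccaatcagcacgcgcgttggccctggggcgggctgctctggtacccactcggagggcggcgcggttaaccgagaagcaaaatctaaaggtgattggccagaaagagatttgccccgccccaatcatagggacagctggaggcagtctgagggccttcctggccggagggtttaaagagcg
Trib3: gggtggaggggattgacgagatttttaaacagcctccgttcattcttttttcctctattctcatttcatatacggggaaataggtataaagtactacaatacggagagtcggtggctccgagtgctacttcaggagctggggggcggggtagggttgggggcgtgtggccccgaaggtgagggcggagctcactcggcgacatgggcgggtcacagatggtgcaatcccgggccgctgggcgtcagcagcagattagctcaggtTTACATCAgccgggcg
Mthfd2: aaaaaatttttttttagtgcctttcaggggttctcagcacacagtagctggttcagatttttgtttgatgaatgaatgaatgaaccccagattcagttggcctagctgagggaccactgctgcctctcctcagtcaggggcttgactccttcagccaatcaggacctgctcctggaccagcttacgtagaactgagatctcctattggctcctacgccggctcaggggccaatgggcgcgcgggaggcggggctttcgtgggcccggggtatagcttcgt
Psat1: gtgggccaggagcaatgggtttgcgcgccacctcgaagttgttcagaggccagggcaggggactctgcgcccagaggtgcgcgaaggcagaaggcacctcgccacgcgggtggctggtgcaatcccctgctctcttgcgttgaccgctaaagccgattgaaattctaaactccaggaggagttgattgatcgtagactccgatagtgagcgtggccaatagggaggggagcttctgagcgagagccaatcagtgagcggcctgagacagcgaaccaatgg
They lie at chr6:7693180-7693459 (minus strand) for Asns, chr2:119350992-119351271 (plus strand) for Chac1, chr2:152344031-152344310 (minus strand) for Trib3, chr6:83317575-83317854 (minus strand) for Mthfd2 and chr19:15925030-15925309 (minus strand) for Psat1. In Asns the match TGATGAAA ran from base -23 to base -16 before the start. In Chac1 it lay on the other strand, as TTGCATCA from base -193 to base -186, and in Trib3, also on the other strand, as TTACATCA from base 15 to base 22 after the start.

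The comparison asked how ethanol, taken on top of a fat-rich diet, altered these transcripts in liver. The widest differences were in 3 enzymes of amino acid and one-carbon supply: Asns, Psat1 and Mthfd2 had fold changes of ethanol over control of 2.38, 2.14 and 2.13. Their signals before scaling were low, 32.2 to 446 units for Asns, 25.9 to 165 for Psat1 and 11.3 to 105 for Mthfd2. Size and order of these fold changes depended on the setting. On the log2 scale they were 1.25, 1.10 and 1.09, and with normexp background correction 0.76, 0.70 and 0.44. With that correction Mthfd2 was below Trib3 at 0.52. Chac1 was at -0.94 with the slide as a fixed block and at -0.78 with array weights, wider than Psat1 (0.67 and 0.75) and Mthfd2 (0.87 and 0.67) in the same fits. None of the 10 genes passed an adjusted p of 0.05 in limma, against 0.0199% of all tested genes, and for none were the groups apart, against 3.05% of all genes. Before adjustment, p was under 0.05 for 2 members, Mthfd2 and Psat1, and for 13.3% of all tested genes. Of the 10 genes 7 had a log2 fold change above 0, against 56.4% of all genes, and 3 had one below 0, against 43.6%. The median was 0.27, against 0.03 over all genes. Ethanol replicate 4 was the lowest ethanol mouse in Asns, Psat1, Mthfd2 and Trib3, and it was the only ethanol mouse on slide 1. Ethanol replicate 2 also lay under the highest control in Asns, Psat1 and Mthfd2. In each of these genes 3 of the 5 ethanol mice were above the highest control, and in Trib3 4 of 5 were.

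**Figure D1:**
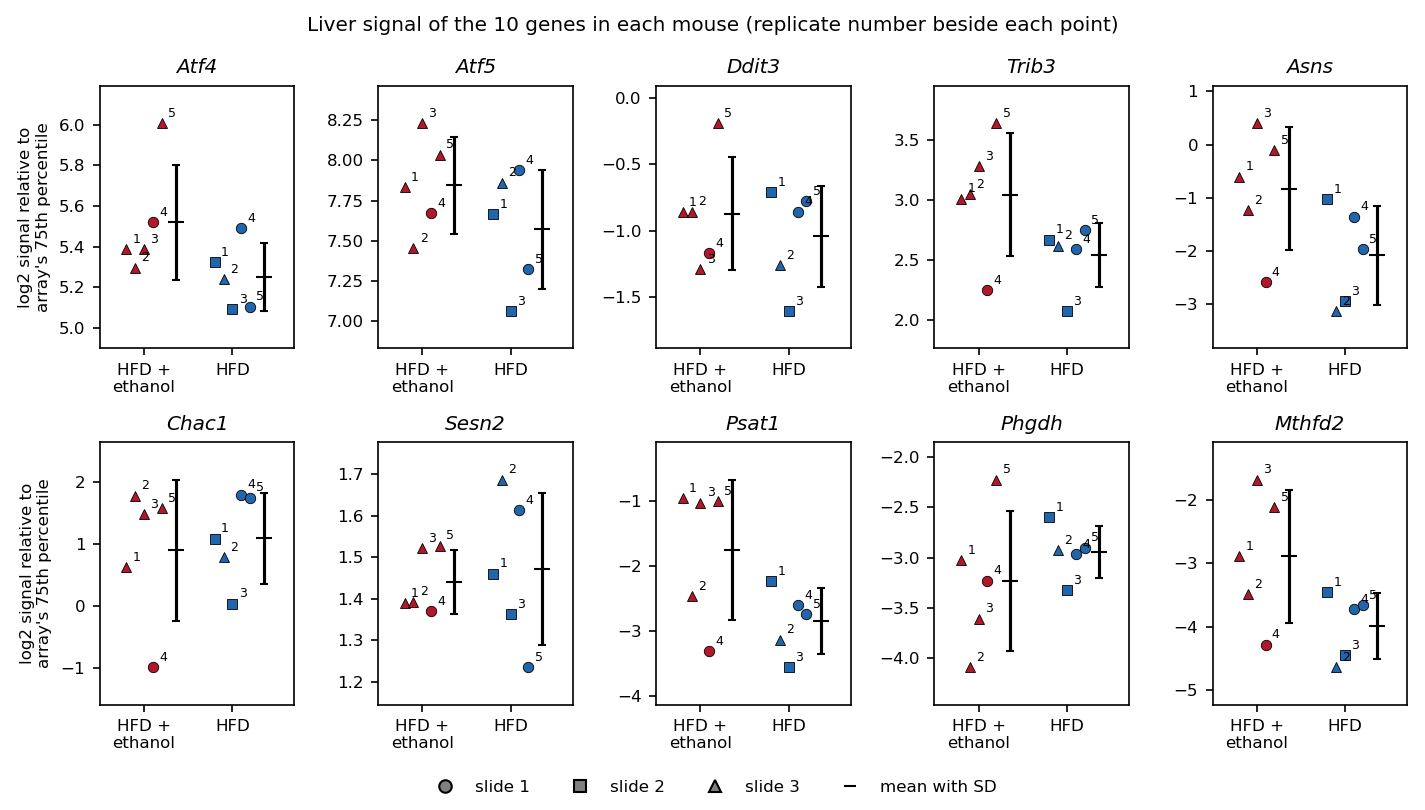
Signal of the 10 genes in each mouse (y axis: log2 signal, with the 75th percentile of each array at 0), with ethanol mice in red on the left and control mice in blue on the right of each panel. Point shapes give the slide, numbers give the replicate, and the bar beside each group is the mean with its SD (n = 5). Ethanol replicate 4 lies below the other 4 ethanol mice in Asns, Psat1, Mthfd2, Trib3 and Chac1, and the groups overlap in every panel.

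Asns encodes asparagine synthetase, which makes asparagine from aspartate and glutamine. Its log2 signals in ethanol replicates 1 to 5 were -0.60, -1.23, 0.40, -2.58 and -0.11, and in control replicates 1 to 5 they were -1.03, -3.12, -2.93, -1.35 and -1.96. So 3 ethanol mice lay above the highest control, and the groups overlapped through ethanol replicates 2 and 4. The means were -0.82 ± 1.15 in ethanol and -2.08 ± 0.93 in control livers (SD, n = 5 each). The log2 fold change was 1.25 ± 0.59 (SE), with a 95% interval from -0.05 to 2.55 and a limma adjusted p of 0.383. Within slide 3 the difference was 2.73, where the 1 control mouse was the lowest of all 10, and within slide 1 it was -0.93. The second Asns probe was well above background on 2 of 5 ethanol arrays and on 0 of 5 control arrays and was not used in the test. Over the 10 arrays its signal followed that of the first probe (r = 0.956, group means not subtracted). It was at the floor set for low signals, -6.39, in control replicates 2 and 3 and ethanol replicate 4, so this r rests partly on floored values.

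Psat1 encodes phosphoserine aminotransferase, the second enzyme of serine synthesis. Its ethanol signals were -0.96, -2.47, -1.03, -3.31 and -1.01, and its control signals were -2.23, -3.13, -3.55, -2.60 and -2.74. Ethanol replicates 1, 3 and 5 stood close together above every control mouse, replicate 2 lay among the controls, and replicate 4 lay below 4 of the 5 controls. The means were -1.76 ± 1.07 in ethanol and -2.85 ± 0.51 in control livers (SD, n = 5 each). Ethanol over control gave a log2 fold change of 1.10 ± 0.47 (SE, 95% interval 0.05 to 2.14, limma adjusted p = 0.358). It was 1.76 within slide 3 and -0.63 within slide 1. A second, dim probe of Psat1 was well above background on 1 ethanol array and 0 control arrays. It did not follow the first (r = 0.0812), its highest signal being in ethanol replicate 4, the ethanol mouse lowest for the first probe. This probe too was at the floor, in control replicates 1, 3 and 4.

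Mthfd2 encodes the mitochondrial folate enzyme that turns methylene-tetrahydrofolate to the formyl form, downstream of serine. Ethanol mice had log2 signals of -2.89, -3.49, -1.68, -4.28 and -2.12, and control mice had -3.46, -4.63, -4.44, -3.72 and -3.66. Ethanol replicates 1, 3 and 5 were again above the highest control, replicate 2 lay just under it, and replicate 4 lay between the control mice. The means were -2.89 ± 1.04 in ethanol and -3.98 ± 0.52 in control livers (SD, n = 5 each). This gave a log2 fold change of 1.09 ± 0.46 (SE, 95% interval 0.07 to 2.11, limma adjusted p = 0.354). The second kept probe gave 1.19, with 5 ethanol and 4 control arrays well above background. Within slide 3 the difference was 2.09 and within slide 1 it was -0.59.

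Phgdh encodes phosphoglycerate dehydrogenase, the enzyme that opens the serine pathway just before Psat1, and it did not show the pattern of Psat1. Its ethanol signals were -3.02, -4.09, -3.61, -3.23 and -2.23, and its control signals were -2.60, -2.93, -3.32, -2.97 and -2.90. The highest and the lowest mouse were both ethanol mice, replicates 5 and 2, and the control mice lay between them, so the groups overlapped. Its log2 fold change was -0.29 ± 0.30 (SE, 95% interval -0.95 to 0.37, limma adjusted p = 0.676), with -0.31 within slide 3 and -0.30 within slide 1.

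Trib3 encodes a pseudokinase that dampens ATF4 and insulin signalling, and it is a usual readout of the pathway. Its ethanol signals were 3.01, 3.05, 3.28, 2.25 and 3.64, and its control signals were 2.67, 2.62, 2.08, 2.59 and 2.75. The other 4 ethanol mice lay above every control mouse and replicate 4 below all controls but replicate 3. The means were 3.05 ± 0.51 in ethanol and 2.54 ± 0.27 in control livers (SD, n = 5 each). As a log2 fold change this was 0.50 ± 0.23 (SE), a fold of 1.42, with a 95% interval from -0.01 to 1.02 and a limma adjusted p of 0.379. It was 0.63 within slide 3 and -0.42 within slide 1.

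Atf4 itself, the regulator at the head of the pathway, differed little between the groups. Its ethanol signals were 5.39, 5.30, 5.39, 5.52 and 6.01, and its control signals were 5.32, 5.24, 5.09, 5.49 and 5.10. Ethanol replicate 5 stood highest, all 5 ethanol mice were above the control mean, and the other 4 lay within or next to the control range. The log2 fold change was 0.27 ± 0.14 (SE, 95% interval -0.04 to 0.58, limma adjusted p = 0.419), with 0.28 within slide 3 and 0.22 within slide 1. Without ethanol replicate 5 it was 0.15. A second Atf4 probe gave 0.37. Replicate 4, low in Asns, Psat1 and Mthfd2, was the second highest of the ethanol mice by the first Atf4 probe. By the second probe it had 1.15, below ethanol replicates 2, 3 and 5 at 1.34, 1.48 and 1.48. Over the 10 arrays the probes followed each other with r = 0.690, so the place of replicate 4 depended on the probe.

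Atf5 encodes a related factor that takes part in stress responses of mitochondria. Its signals ran from 7.45 to 8.23, median 7.83, in ethanol livers and from 7.06 to 7.94, median 7.66, in control livers, and the ranges overlapped over most of their length. The log2 fold change was 0.27 ± 0.20 (SE, 95% interval -0.16 to 0.71, limma adjusted p = 0.535), the second probe gave 0.28, and the difference was 0.03 within slide 3 and 0.04 within slide 1. It was 0.15 without control replicate 3 and 0.18 without ethanol replicate 3. Ddit3 encodes CHOP, the factor linked to cell death under lasting stress. Its ethanol signals were -0.86, -0.86, -1.29, -1.17 and -0.19, and its control signals were -0.71, -1.26, -1.61, -0.86 and -0.78. Apart from replicate 5, the highest mouse, the ethanol mice lay within the control range. Its log2 fold change was 0.17 ± 0.23 (SE, 95% interval -0.35 to 0.68, limma adjusted p = 0.766), with 0.46 within slide 3 and -0.35 within slide 1.

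Chac1 encodes an enzyme that breaks down glutathione and is induced through ATF4, and its signals were widely spread within both groups. They were 0.62, 1.78, 1.48, -0.99 and 1.57 in ethanol mice and 1.08, 0.78, 0.03, 1.79 and 1.74 in control mice. Replicate 4 was the lowest of all 10 mice, and no ethanol mouse exceeded the highest control. For Chac1 the log2 fold change was -0.19 ± 0.54 (SE, 95% interval -1.38 to 0.99, limma adjusted p = 0.896), and without ethanol replicate 4 it was 0.28. It was 0.58 within slide 3 and -2.76 within slide 1. Sesn2 encodes sestrin 2, which restrains mTORC1 when leucine is short. Its signals ran from 1.37 to 1.53, median 1.39, in ethanol and from 1.24 to 1.69, median 1.46, in control livers. Every ethanol mouse lay inside the control range, and the log2 fold change was -0.03 ± 0.09 (SE, 95% interval -0.24 to 0.18, limma adjusted p = 0.906), with -0.23 within slide 3 and -0.05 within slide 1.

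**Figure D2:**
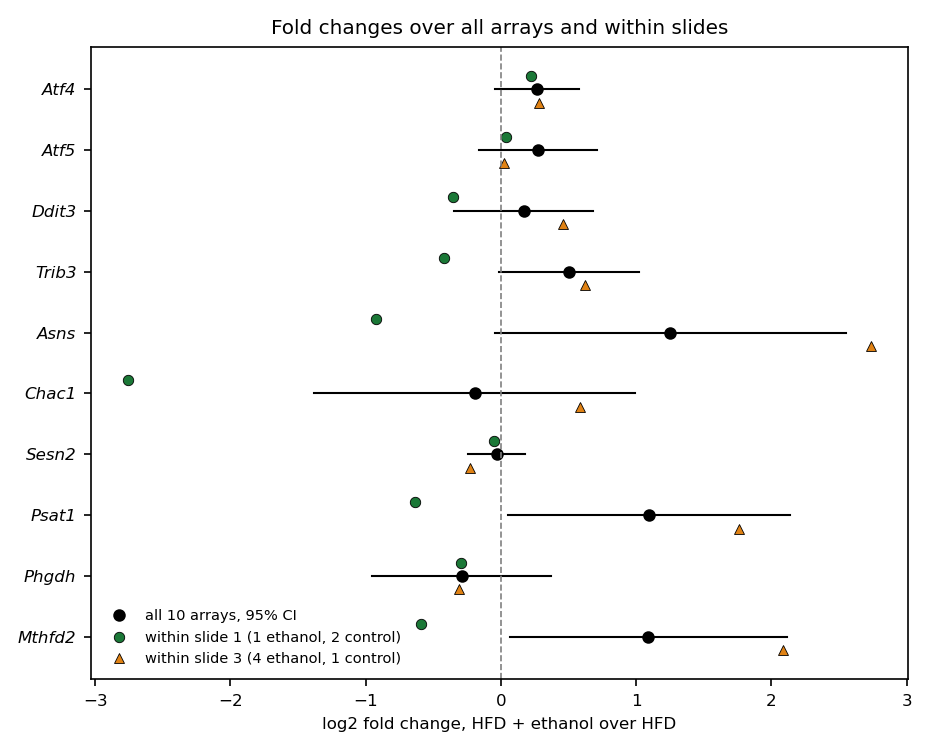
Log2 fold change of ethanol over control (x axis) for the 10 genes, over all 10 arrays with its 95% interval (black) and as the difference of means within slide 1 (green circles) and slide 3 (orange triangles). Asns, Psat1, Mthfd2, Trib3, Ddit3 and Chac1 lie on opposite sides of 0 in the 2 slides.

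The slides bore on the result in the following way. Within slide 3, with 4 ethanol mice and 1 control mouse, 8 of the 10 differences were above 0 and their median was 0.52, against -0.01 over all genes. Within slide 1, with 1 ethanol mouse and 2 control mice, 2 of 10 were above 0 and the median was -0.39, against 0.04 over all genes. Each within-slide value rests on a single mouse in 1 of its groups, so that a slide and that mouse cannot be told apart. With the slide as a fixed block the log2 fold changes were 1.07 for Asns, 0.67 for Psat1, 0.87 for Mthfd2 and 0.15 for Trib3, and no member passed. Without ethanol replicate 4 they were 1.69 ± 0.49, 1.48 ± 0.36, 1.44 ± 0.39 and 0.70 ± 0.17 (SE), with limma adjusted p of 0.247, 0.196, 0.218 and 0.196 in the same order.

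Individual mice differed more in Asns, Chac1, Psat1 and Mthfd2 than in most genes. The pooled SD within groups was 1.05 for Asns, 0.957 for Chac1, 0.840 for Psat1 and 0.822 for Mthfd2 on the log2 scale, which put them at the percentiles 99.1, 98.7, 97.9 and 97.8 of all tested genes. The median over all genes was 0.203. For Sesn2 it was 0.140 and for Atf4 0.232. These percentiles are over genes of every brightness. Signals before scaling went down to 32.2 units for Asns, 25.9 for Psat1 and 11.3 for Mthfd2, and the part of low signal in their spread was not tested. After the group means were subtracted, Asns, Psat1 and Mthfd2 varied together over the 10 arrays, with Pearson r of 0.952 for Asns and Mthfd2, 0.902 for Asns and Psat1 and 0.896 for Psat1 and Mthfd2. Among the 15087 other genes, Mthfd2 was the one closest to Asns and Asns the one closest to Mthfd2, and Psat1 ranked 16 by its likeness to Asns. Trib3 went with Chac1 (r = 0.862), Psat1 (r = 0.818), Mthfd2 (r = 0.805) and Asns (r = 0.767). Atf4 was closer to Phgdh (r = 0.797) and Ddit3 (r = 0.669) than to Asns (r = 0.325) or Mthfd2 (r = 0.317). These are descriptions over 10 arrays that share slides, and r between genes also holds what an array does to all its spots.

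By the same measure the genes nearest to Asns after Mthfd2 were Rsph9 (r = 0.943) and Slc7a4 (r = 0.940). Among those nearest to Psat1 were Gata3 (r = 0.959) and Slc7a4 (r = 0.955). Those nearest to Trib3 were Gpr4 (r = 0.945), Ntn1 (r = 0.930) and Mlph (r = 0.929), those nearest to Atf4 were Me1 (r = 0.949), Mob3b (r = 0.947) and Cxadr (r = 0.945), and those nearest to Phgdh were Htra3 (r = 0.980), Abhd5 (r = 0.977) and Bank1 (r = 0.976). Rsph9, Gata3 and Slc7a4 had log2 fold changes from -0.24 to -0.15, and Me1, which encodes the cytosolic malic enzyme, had 0.99 ± 0.27 (SE, limma adjusted p = 0.216).

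**Figure D3:**
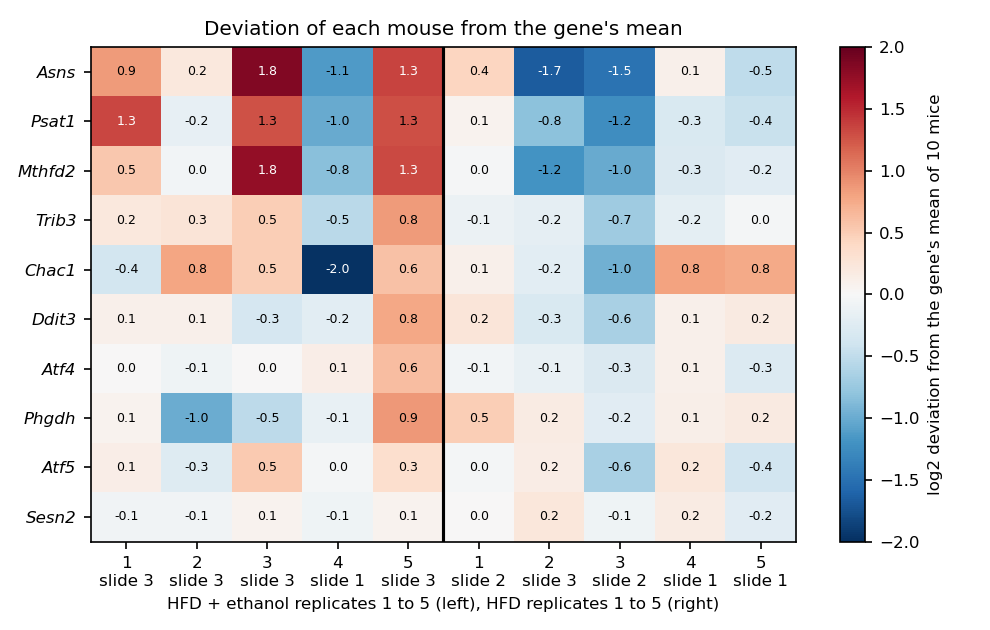
Deviation of each mouse (columns, ethanol left of the line, with the slide under each) from the gene's mean over 10 mice (rows), in log2 units. Asns, Psat1 and Mthfd2 are high together in ethanol replicates 1, 3 and 5 and low together in ethanol replicate 4 and control replicates 2 and 3.

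The mice at the ends of the range were few. Ethanol replicate 4 was the lowest ethanol mouse in 6 of the 10 genes (Trib3, Asns, Chac1, Sesn2, Psat1 and Mthfd2), and ethanol replicate 5 the highest in 5 (Atf4, Ddit3, Trib3, Sesn2 and Phgdh). Among controls, replicate 3 was lowest in 7 genes and replicate 1 highest in 5. Control replicate 3 also had the smallest share of spots above background, 55.5%, and its part in the low values was not tested. Ethanol replicate 5 stood highest of the ethanol mice in some other stress genes as well, but not in all. In Fgf21, a stress hormone of the liver, the other ethanol mice had log2 signals of 1.45 or less and control mice 1.76 or less. Replicate 5 had 3.95 there. In Atf3, a stress-induced transcription factor, it had 0.75, where the other 9 mice had -0.78 or less. In Ppp1r15a, which encodes the phosphatase subunit that ends eIF2alpha phosphorylation, it had 2.19, where the other ethanol mice had at most 1.31 and the control mice at most 1.25. Replicate 5 was not the highest ethanol mouse in Hspa5, Creld2 or Ern1, genes of the endoplasmic reticulum response. It had 5.93, 3.86 and 0.29 in them, where ethanol replicate 3 had 6.33, 4.65 and 0.63.

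Upstream of ATF4, 1 list held the eIF2alpha kinases, the phosphatase subunits that oppose them, Eif2s1 (eIF2alpha itself), Gcn1 and Impact. Of these 9 genes 5 had a positive log2 fold change, against 56.4% of all tested genes. None passed in limma, and the median of the 9 was 0.01. Of the kinases, Eif2ak2 had -0.12 and Eif2ak1 0.05. Eif2ak3, the kinase of endoplasmic reticulum stress known as PERK, had -0.25 ± 0.21 (SE, adjusted p = 0.61), and Eif2ak4, the amino acid sensor GCN2, had -0.15 ± 0.10 (SE, adjusted p = 0.523). Ppp1r15a had 0.14 ± 0.21 (SE, adjusted p = 0.791), and Ppp1r15b, the constitutive phosphatase subunit, 0.17 ± 0.10 (SE, adjusted p = 0.449). The smallest p of this list was that of Impact, an inhibitor of GCN2, with -0.24 ± 0.10 (SE, adjusted p = 0.349).

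Of 25 other genes known as ATF4 targets 22 were tested, 13 with a positive log2 fold change, against 56.4% of all tested genes. None was past the threshold, and their median was 0.04. The smallest p was that of Slc6a9, the glycine transporter GlyT1. Its log2 signals were 5.09, 4.76, 5.09, 4.82 and 5.43 in ethanol mice and 4.38, 4.40, 4.50, 4.48 and 4.50 in control mice, with no overlap between the groups. It was the 1 gene of the 22 with its groups apart, against 3.05% of all tested genes. The log2 fold change was 0.59 ± 0.12 (SE, limma adjusted p = 0.17), with 0.69 within slide 3 and 0.33 within slide 1. Slc7a5, a subunit of the large neutral amino acid transporter LAT1, had -2.08, -2.07, -1.97, -2.87 and -2.10 in ethanol mice and -3.05, -2.47, -2.96, -2.82 and -2.97 in control mice. Ethanol replicate 4 lay among the controls and the other 4 lay above all of them, and the log2 fold change was 0.64 ± 0.18 (SE, limma adjusted p = 0.227), with 0.41 within slide 3 and 0.03 within slide 1. Before adjustment the limma p was under 0.05 for 3 of the 22 genes, near the share of 13.3% over all tested genes. The third of them was Slc7a1, the cationic amino acid transporter CAT1, named after its values were seen. It had -0.51 ± 0.17 (SE, 95% interval -0.90 to -0.13, limma adjusted p = 0.296). Fgf21 had 0.32 ± 0.64 (SE, adjusted p = 0.847) and Atf3 -0.15 ± 0.61 (SE, adjusted p = 0.932).

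Other enzymes of serine, glycine and mitochondrial folate metabolism did not lean one way, with 8 of 16 tested genes positive and a median of -0.0048. Psph, which completes serine synthesis after Psat1, had a log2 fold change of -0.01 ± 0.14 (SE, adjusted p = 0.977). Shmt2, which splits serine to glycine in mitochondria and feeds Mthfd2, had 0.26 ± 0.10 (SE, adjusted p = 0.321), with 0.29 within slide 3 and 0.20 within slide 1. Mthfd1l, another mitochondrial folate enzyme, named after its values were seen, had the lowest value of the list. It had -0.79 ± 0.43 (SE, limma adjusted p = 0.432). Gnmt, the glycine methyltransferase of the methionine cycle, had 0.71 ± 0.34 (SE, adjusted p = 0.393). Cytosolic tRNA synthetases and the tRNA exporter Xpot had a positive log2 fold change in 18 of 21 genes, with a median of 0.13, and none passed. Over all tested genes 56.4% were positive, with a median of 0.03. Xpot had 0.39 ± 0.10 (SE, adjusted p = 0.212) and was the 1 gene of the 21 with its groups apart, against 3.05% of all tested genes. Yars, the tyrosyl-tRNA synthetase, had 0.31 ± 0.11 (SE, adjusted p = 0.302), with 0.58 within slide 3 and -0.04 within slide 1. The arms of the endoplasmic reticulum response that do not use ATF4 had 11 of 15 genes positive, a median of 0.07 and none past the threshold, with Hspa5, the chaperone BiP, at 0.08 ± 0.15 (SE, adjusted p = 0.826), Ern1, the sensor IRE1, at 0.32 ± 0.16 (SE, adjusted p = 0.402) and Creld2, a protein of that compartment, at 0.36 ± 0.20 (SE, adjusted p = 0.435).

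**Figure D4:**
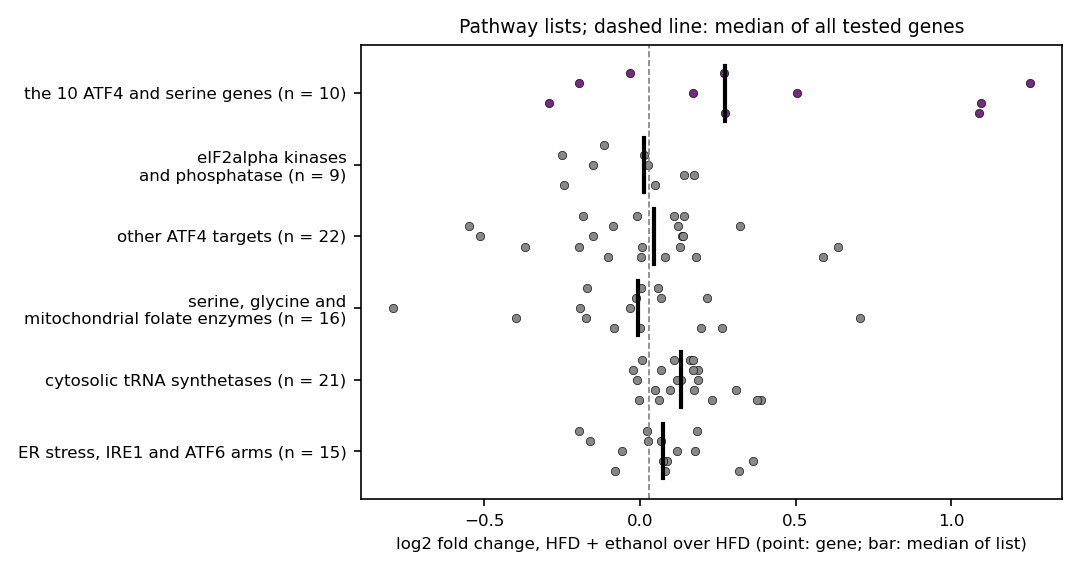
Log2 fold change of ethanol over control for each tested gene of the pathway lists (points) with the list's median (bar) and the median of all tested genes (dashed line). Asns, Psat1 and Mthfd2 lie at 1.09 to 1.25, beyond every other gene plotted.

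Over all tested genes 43.6% had a negative log2 fold change. None of the cell type markers passed the threshold in limma, and their counts and summed signals were as follows. Of 11 stellate cell markers 10 had a negative log2 fold change (median -0.37, none passed), and their summed linear signal, in units of the array's 75th percentile, ran from 58.7 to 93.0 in ethanol and from 94.5 to 125 in control livers. The groups did not overlap for 3 of the 11, against 3.05% of all tested genes. Col1a1, a fibrillar collagen, had -1.90 (limma adjusted p = 0.184) and Col1a2, its partner chain, -1.43 (limma adjusted p = 0.172). Of 14 macrophage and Kupffer cell markers 10 were negative (summed 59.6 to 121 in ethanol and 66.6 to 115 in control livers), with Cx3cr1 at -1.20 and Clec4f at 0.42. Of 4 tested bile duct markers 3 were negative (3.27 to 16.1 in ethanol and 8.89 to 27.3 in control livers), with Sox9 at -0.66 and Spp1 at -1.08. The bile duct sum rested mostly on Spp1. Its mean log2 signal in control livers was 3.70, against -0.83, -2.93 and -3.54 for Sox9, Krt19 and Cftr. Endothelial markers were negative in 6 of 9 (31.2 to 34.9 in ethanol and 29.7 to 37.5 in control livers). Pecam1 was at 0.32 and Eng at -0.17. Lymphocyte markers were negative in 5 of 8 (26.0 to 39.3 in ethanol and 26.9 to 45.6 in control livers). Cd79b was at -0.39 and Ms4a1 at -0.22, and 3 markers were positive, with Cd3e at 0.27. Hepatocyte markers were negative in 4 of 10 (3451 to 3802 in ethanol and 3052 to 4182 in control livers), with Apob at -0.25 and Apoa1 at -0.22. The other 6 were positive, among them Asgr1 at 0.19 and Serpina1c at 0.18, and the median of the 10 was 0.04. No marker of these lists was below background on all 10 arrays. Their part in the values of the 10 genes was not tested, and in whole liver fewer cells of a type cannot be told apart from less RNA per cell.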

How the data were processed

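Liver RNA of 10 mice (150 ng each, labelled with Cy3 per the labels' protocols) was hybridised to 1-colour Agilent arrays. The authors deposited 1 scanner table per array of spot intensity on a linear scale, made with Agilent Feature Extraction 10.7.3.1 per the file headers. A further table the authors deposited holds log2 values, and its making has no description in the sources used. Over 27812 probes, its differences from array to array followed those of the scaled log2 intensity (r = 1), which settles direction. A correlation does not settle scale. Fitted to that table, the log2 fold changes were 1.24 for Asns and 1.08 for Psat1, where the main fit gave 1.25 and 1.10. The centring constant of each probe stays unknown. Its column medians were 0.02, -0.0037, -0.01, -0.0020 and 0.05 for ethanol and -0.12, 0.08, 0.02, -0.07 and -0.07 for control replicates 1 to 5.

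From the scanner tables, processed intensities of non-control spots without outlier flags were divided by the array's 75th percentile (between 279.9 and 387.4), given a floor worth 4 signal units on an array of typical brightness and put on a log2 scale. A probe stayed in (31110 of 56605 did) when 4 or more of the 5 arrays in either group had it well above background. Names came from accessions through RefSeq (GRCm38.p6), from which gene names and promoter sequences were taken. The array was designed on mm9, so no probe position is given. The kept probe with the highest mean stood for a gene. The comparison used limma 3.58.1 (R 4.3.3) with Benjamini-Hochberg adjustment over 15088 genes and a threshold of 0.05. SE is limma's moderated standard error. No 2 arrays were near-identical (smallest root mean square log2 difference 0.301), and the number of arrays limits the precision. The fit was tested on simulated data.

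The 10 genes, the lists and the tests were chosen with earlier results of these data known. The rule for named genes took all 10 members, from each list the genes past the threshold or else the 2 with the smallest p, Eif2ak3, Eif2ak4, Ppp1r15a, Atf3, Fgf21, Psph, Shmt2 and Hspa5 whatever their values, and for 5 members the 3 genes with the highest r, of which 1 is not reported here. Named outside this rule, after their values were seen, were Slc7a1, Mthfd1l, Eif2ak1, Eif2ak2, Asgr1, Serpina1c, Cd3e, Krt19 and Cftr. Jhdm1d and Mars were looked up under the newer symbols Kdm7a and Mars1. The labels gave no pairing of mice by replicate number, and the main fit used none. Other fits changed the normalization, the background correction, the floor, the filter, the probe rule, the variance model or the weights, added slide or position terms, or left out arrays. Leaving out slide 1 was added after seeing the data.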

Additional observations from a re-analysis of the deposited data

Results flagged for a closer look

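In 54 groups of 5 mice (27 genes, each in ethanol and control mice), 2 held a mouse far from the other 4, where chance alone flags about 1 group in 20. Slc7a5 had a log2 signal of -2.87 in ethanol replicate 4, while the nearest ethanol mouse had -2.10. Trib3 had 2.08 in control replicate 3, while the nearest control mouse had 2.59. No cause was tested for either.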

How the results depend on the processing

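No member passed in any of the 27 other fits with limma. Over them Asns ran from 0.70 to 1.97, Psat1 from 0.67 to 1.60, Mthfd2 from 0.44 to 1.63, Trib3 from 0.15 to 0.79, Atf4 from 0.15 to 0.39 and Atf5 from 0.03 to 0.37 on the log2 scale, all above 0 in every fit. The lowest adjusted p of Asns, Psat1, Mthfd2 and Trib3, 0.202, 0.166, 0.171 and 0.171, came with the slide as a random block. Leaving out 1 array at a time gave 0.95 to 1.69 for Asns, 0.90 to 1.48 for Psat1, 0.79 to 1.44 for Mthfd2, 0.36 to 0.70 for Trib3, 0.15 to 0.33 for Atf4, 0.15 to 0.37 for Atf5, -0.46 to 0.28 for Chac1, -0.090 to 0.022 for Sesn2, -0.0017 to 0.27 for Ddit3 and -0.54 to -0.08 for Phgdh. The sign of Ddit3 turned without ethanol replicate 5, of Chac1 without ethanol replicate 4 and of Sesn2 without control replicate 2 or 4. With the slide as a random block Chac1 was at 0.028 and Sesn2 at 0.0079, and without slide 1 Chac1 was at 0.73. Phgdh was at 0.058 with the slide column as a covariate and at 0.12 without slide column 1. In slide 1 alone the values were -0.35 for Ddit3, -0.42 for Trib3, -0.93 for Asns, -0.63 for Psat1, -0.59 for Mthfd2 and -2.76 for Chac1. In slide 3 alone they were 2.73 for Asns, 2.09 for Mthfd2, 0.58 for Chac1 and -0.23 for Sesn2. The cause of these shifts was not tested.

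Over all genes 3 passed, with 2003 at an unadjusted p under 0.05. The count was 7 with normexp background correction, 5 with a floor of 16, 12 with the slide as a random block, 7 with a trended robust variance and 15 with array weights. It was 0 without a filter on dim probes, with the slide as a fixed block, with the slide column as a covariate, with the replicate block and without slide 2 or slide 1, with 2404, 805, 866, 2443, 1247 and 994 genes at an unadjusted p under 0.05 in limma. Leaving out 1 array at a time gave 0 to 7, with 0 without ethanol replicate 1, control replicate 4 or control replicate 5, 1 without ethanol replicate 2 and 7 without ethanol replicate 4. The deviations of same-numbered mice had correlations of -0.11 to 0.32. Mice of different numbers were not compared, so these values do not decide whether the numbers paired mice. Under the replicate block no member passed. Quantile normalization moved the median of the 10 genes to 0.17 and the slide block to 0.12.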
